A study of Mus musculus with 6 samples.

Results

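The expression of 6 muscle regulators was followed across fibroblast reprogramming: Myocd, Srf, Mef2a, Mef2c, Mef2d and Smarcd3. They were chosen by symbol, and all 6 were found among the 49315 genes of the deposited count table. RNA sequencing covered 6 libraries from wild-type mouse tail tip skin, 2 for each of 3 groups. The fibroblast group (day 0) received negative control lentiviral vectors. The early group (day 7) received CRISPR activation vectors of the SAM design, in which a Cas9 that does not cut carries transcriptional activators to promoters. The late group (day 22) received the same kind of vectors followed by isolation of colonies, and its cells are labelled as progenitors. Which genes the vectors targeted is not given in the sources used here. The labels call the second early library partially reprogrammed, but whether replicates are separate cultures or mice is not labelled; the p-values therefore reflect the spread between these libraries only. The early and late columns were assigned by name: the abbreviation for induced progenitors was read as late, and the fibroblast abbreviation with a prefixed c as early. A wrong reading would exchange the early and late values.

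SRF (serum response factor) is a MADS-box protein that binds the CArG box in promoters of contractile, cytoskeletal and immediate early genes. It has little activating power alone: myocardin (Myocd), found in heart and smooth muscle, and its widely expressed relatives Mrtfa and Mrtfb switch on the contractile branch, whereas ternary complex factors such as Elk1 act on the immediate early branch. The MEF2 proteins (Mef2a, Mef2c and Mef2d) form another MADS-box family, bind the MEF2 box of muscle genes and are held back by class IIa histone deacetylases. Smarcd3 encodes BAF60c, the subunit that links the BAF chromatin remodelling complex to heart and muscle transcription factors.

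Promoter sequences of 5 of the 6 members matched in the RefSeq table on GRCm38.p6, all but Myocd. Windows reached from 250 bases before to 50 after the start, and both motifs searched read the same on both strands. Among 27025 genes with a promoter in the table, 1.81% held a CArG box and 3.70% a MEF2 box. Srf held a pair of CArG boxes and Mef2a held a MEF2 box across its start. No match was found in the windows of Mef2c (3 starts), Mef2d or Smarcd3. Of the SRF contractile targets described further on, 5 of 16 with a promoter held a CArG box (31.2%), and of the MEF2 targets 3 of 12 held a MEF2 box (25%). Of the immediate early SRF targets 1 of 7 held a CArG box (14.3%). Across the lists, 1 of 12 MEF2 targets held a CArG box (8.33%). A MEF2 box was found in 0 of 16 contractile and 0 of 7 immediate early targets. The stretches are shown because they are the letters that the described regulators read; capitals mark the boxes, and each is written 5′ to 3′ on the gene's strand.
Srf, chr17:46556200-46556259, minus strand, boxes starting at -82 and -62: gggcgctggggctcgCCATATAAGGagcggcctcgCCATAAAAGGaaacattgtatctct
Mef2a, chr7:67372851-67372890, minus strand, box starting at -2: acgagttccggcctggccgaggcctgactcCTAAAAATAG
Acta1, chr8:123894824-123894863, minus strand, box starting at -73: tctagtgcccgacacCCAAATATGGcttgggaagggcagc
Vcl, chr14:20929156-20929195, plus strand, box starting at -227: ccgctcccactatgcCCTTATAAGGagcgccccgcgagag
Myl9, chr2:156775288-156775327, plus strand, box starting at -161: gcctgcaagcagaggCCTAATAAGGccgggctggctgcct
Xirp2, chr2:67445913-67445952, plus strand, box starting at -74: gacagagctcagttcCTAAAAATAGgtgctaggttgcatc
Klf2, chr8:72318929-72318968, plus strand, box starting at -118: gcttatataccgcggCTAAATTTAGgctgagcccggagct

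Total counts ranged from 20172874 to 40122999 per library, and a count of 3 corresponded to between 0.0842 and 0.142 CPM (counts scaled to library size with TMM factors). Late replicate 2 stood apart: transcripts of the mitochondrial genome took 10.3% of its counts against 1.48% to 2.16% elsewhere, and the summed level of 12 cardiomyocyte markers was 55701 CPM against 20.2 to 146 CPM in the other 5 libraries. Results that rest on this library are given with and without it. A fit without either late library leaves 1 late library, whose spread is then taken from the other groups. Fibroblast markers were present in the fibroblast libraries (10 of 10 with counts), and Lum was without counts in early replicate 1.

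All 6 members passed the filter on low counts, Myocd through its late libraries alone, so counts over the members are descriptions. The comparisons share libraries and are not independent. Between late cells and fibroblasts 0 of the 6 passed the edgeR test at an adjusted p under 0.05, where 1.42% of 16688 genes did (0.641% higher and 0.779% lower). At an unadjusted p under 0.05 there were 2 members (32.5% of all genes), and DESeq2 called 2, Myocd and Smarcd3 (26.7% of all genes). Between early cells and fibroblasts 0 of 6 passed with edgeR (1.53% of all genes, 0.695% higher and 0.833% lower), 0 had an unadjusted p under 0.05 (29.8%) and DESeq2 called 0 (22.1%). Between late and early cells no member and no gene passed with edgeR (0%), while 3 members had an unadjusted p under 0.05 (10.2% of all genes) and DESeq2 called 2, again Myocd and Smarcd3 (6.44%).

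Separation of the libraries without a test gave a similar picture. Myocd, Srf and Smarcd3 were the 3 members with late libraries both higher than either fibroblast library, as in 35.7% of all genes tested, and 0 members lay the other way (32.9%). The same 3 lay above both early libraries, as in 16.1% of all genes, and 0 below (17.6%). In early cells Srf and Mef2d were the 2 members below both fibroblast libraries (34.4% of all genes), and 0 lay above (32.3%). The median log2 fold change of the members was 0.64 in late and -0.27 in early cells against fibroblasts, and 0.91 between late and early cells, beside 0.11, 0.00 and -0.03 over all genes. Without late replicate 2 the medians of the comparisons with late cells were -0.24 and 0.20.

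**Figure D1:**
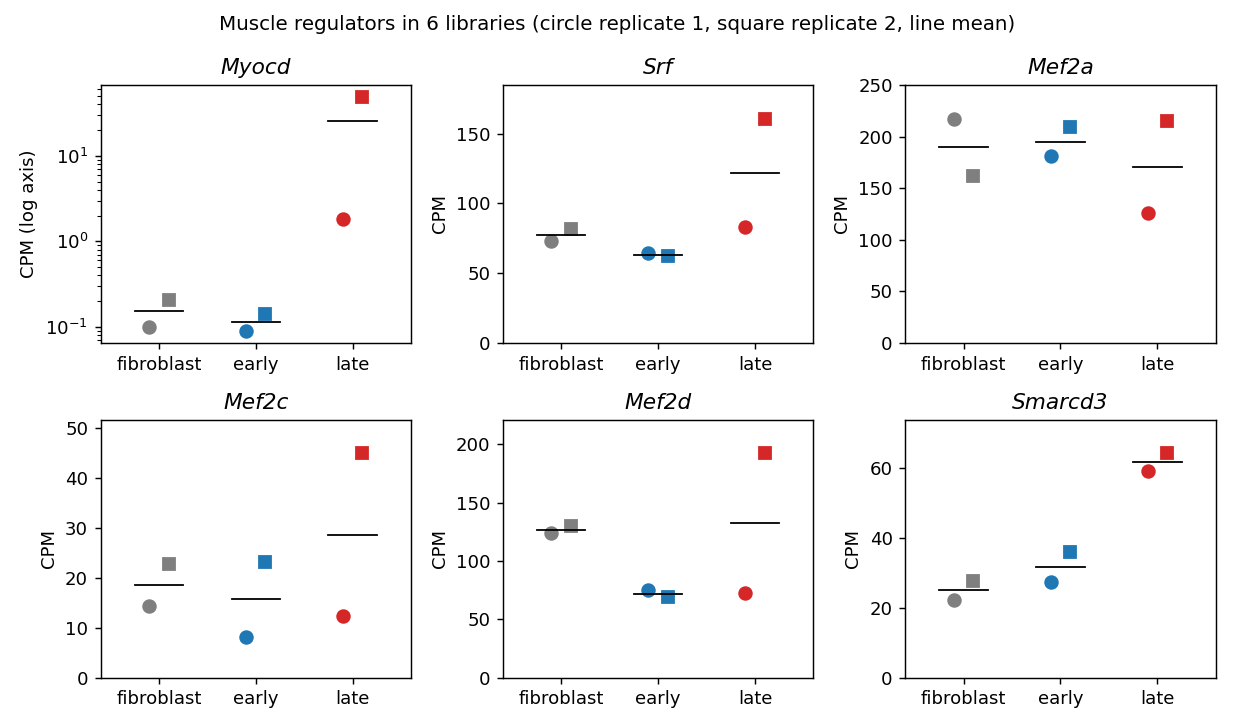
CPM of the 6 members (vertical axes; logarithmic for Myocd, from 0 for the others) in the fibroblast, early and late groups; circles are replicate 1, squares replicate 2 and lines the mean of 2 libraries. Myocd reached 1.83 and 49.4 CPM in late cells, Smarcd3 was close between the late libraries at 59.3 and 64.2 CPM, and Srf, Mef2c and Mef2d were highest in late replicate 2.

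Myocd (ENSMUSG00000020542, chromosome 11, 65176561 to 65269989 in GRCm38, minus strand) was nearly silent until the late stage. It had 3 and 7 counts in the fibroblast libraries (0.101 and 0.206 CPM), 2 and 3 in the early ones (0.0891 and 0.142 CPM), and 44 and 1759 in the late ones (1.83 and 49.4 CPM). Both late libraries lay above every other library, and the second exceeded the first 26.9 times (19.98 to 37.2, exact 95% interval of the counts). The fitted log2 fold change was 7.33 ± 1.78 (SE) over fibroblasts (edgeR adjusted p = 0.0781, DESeq2 adjusted p = 4.4e-06) and 7.74 ± 1.86 over early cells (edgeR adjusted p = 0.377, DESeq2 adjusted p = 1.75e-05). The early libraries overlapped the fibroblast ones (-0.41 ± 1.77, edgeR adjusted p = 0.899).

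The size of the Myocd difference turned on late replicate 2. Without it the log2 fold change over fibroblasts was 3.52 and over early cells 3.94. Without late replicate 1 the values were 8.19 and 8.58. Such fits hold no spread between late libraries, so their p-values are not given for the members. In counts alone, late replicate 1 stood at 11.7 times the fibroblast libraries (44 against 10 counts, exact 95% counting interval 5.80 to 26.1) and 15.99 times the early ones (44 against 5 counts, 6.36 to 51.7). Such intervals cover counting error only.

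Cardiomyocyte markers were far more uneven between the late libraries than Myocd was. In late replicate 1 the 12 markers stood at 0.0956% to 0.736% of their level in late replicate 2 (median 0.140%), while Myocd stood at 3.71%. In fibroblast replicate 2 the markers had a median of 0.270% of the late replicate 2 level, and Myocd stood at 0.417%. Whether reads of late replicate 2 contribute to the few Myocd counts of other libraries was not tested. In bulk RNA, more cells of a type and more RNA per cell cannot be told apart.

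Per kilobase of exon, Myocd was a minor member of its family except in late replicate 2. The length used is all annotated exon bases of a gene merged, not the transcript in use, so comparisons between genes depend on it. It made up 0.0840% and 0.158% of the summed family level in fibroblasts, 0.0695% and 0.143% in early cells, 1.55% in late replicate 1 and 34.1% in late replicate 2. Mrtfa, the relative that moves into the nucleus when actin polymerizes, made up 76.3% to 85.1% in 5 libraries and 45.7% in late replicate 2. Its level was 89.1 and 94.5 CPM in the fibroblast libraries, 104 and 75.2 in early cells and 90.4 and 63.1 in late cells, with overlap between all groups. Mrtfb was at 36.7 and 42.9, 26.6 and 27.7, and 30.1 and 41.1 CPM in the same order. The late libraries of Mrtfb lay between those of early cells and the upper fibroblast value (log2 fold change over fibroblasts -0.16 ± 0.25, edgeR adjusted p = 0.674).

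Srf (ENSMUSG00000015605, chromosome 17, 46548329 to 46556175, minus strand) was abundant at every stage. Its level was 73.0 and 82.0 CPM in the fibroblast libraries, 64.2 and 62.2 in early cells, and 83.1 and 161 in late cells. The early libraries lay below the fibroblast ones (log2 fold change -0.29 ± 0.34, edgeR adjusted p = 0.605) and the late ones above both groups (0.65 ± 0.34 over fibroblasts, adjusted p = 0.238; 0.95 ± 0.34 over early cells, adjusted p = 0.458). Late replicate 1 barely exceeded the upper fibroblast value. Without late replicate 2 the log2 fold change over fibroblasts was 0.09 and over early cells 0.39. In CPM, Mef2a exceeded Srf in every library. Per kilobase of merged exons, Srf had the highest level of the 6 members in every library, from 21.5 to 55.6 CPM per kilobase. This is the gene with the pair of CArG boxes printed above.

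Contractile and cytoskeletal SRF targets were mostly lower in early cells than in fibroblasts. Of 20 listed genes, 18 were lower and 2 higher, with a median log2 fold change of -1.78 against 0.00 over all genes tested. With edgeR 0 of the 20 passed, and 14 had an unadjusted p under 0.05 (29.8% of all genes). DESeq2 called 12 lower and 1 higher (22.1% of all genes called). Tagln, an actin-bundling protein of smooth muscle, was at 129 and 353 CPM in the fibroblast libraries, 14.0 and 6.63 in early cells and 109.5 and 34.2 in late cells. Actg2, the enteric smooth muscle actin, was at 32.5 and 235, 3.16 and 0.804, and 42.6 and 17.1 CPM in that order. For both genes the early libraries were the lowest and lay below both other groups (Tagln -4.55 ± 0.88 against fibroblasts, edgeR adjusted p = 0.0645; Actg2 -6.07 ± 1.34, adjusted p = 0.0733). Without late replicate 2 in the fit, Tagln passed (edgeR adjusted p = 0.0498).

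In late cells the median of the same list stood between those of the other groups, but not every gene did. Single genes ranged from -3.37 to 8.39 (log2) against fibroblasts. Against fibroblasts 15 of 20 were lower (median log2 fold change -0.83, against 0.11 over all genes; -0.88 without late replicate 2). Against early cells 18 of 20 were higher (median 1.06, against -0.03 over all genes; 0.80 without late replicate 2). Neither comparison had a gene called by edgeR. In each, 7 had an unadjusted p under 0.05 (32.5% of all genes against fibroblasts, 10.2% against early cells). DESeq2 called 3 higher and 4 lower against fibroblasts (26.7% of all genes called). Against early cells it called 5 higher and 0 lower (6.44%). The unadjusted count against fibroblasts is near its share of all genes.

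The genes of this list with the smallest p between late cells and fibroblasts did not move alike. Acta1, skeletal actin, was higher at both stages, at 7.02 and 7.001 CPM in the fibroblast libraries, 28.7 and 27.0 in early cells and 25.1 and 85.6 in late cells (late against fibroblast 2.98 ± 0.61, edgeR adjusted p = 0.0654). The Acta1 value was 1.83 without late replicate 2 and 3.52 without late replicate 1. Cald1, the actin-binding protein caldesmon, was lower at both, at 2467 and 3947, 167 and 533, and 449 and 171 CPM (-3.37 ± 0.79, adjusted p = 0.0755). Tpm2, a tropomyosin, was at 379 and 705, 159 and 119, and 165 and 102 CPM (-2.02 ± 0.43, adjusted p = 0.0671). None of these groups overlapped between late cells and fibroblasts.

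Of 10 immediate early SRF targets, 7 were higher and 3 lower in each comparison with fibroblasts, where 50.2% of all genes were higher in early and 54.1% in late cells. Their median log2 fold changes were 0.75 in early and 0.43 in late cells (0.16 without late replicate 2), beside 0.00 and 0.11 over all genes. Calls by edgeR were 0 in both. In early cells 4 had an unadjusted p under 0.05 (29.8% of all genes) and DESeq2 called 4 higher (22.1% called in either direction). In late cells these counts were 3 (32.5%) and 3 (26.7%). The late counts are near the shares of all genes. In early cells 4 of the 10 lay above and 3 below both fibroblast libraries (32.3% and 34.4% of all genes). Egr1, a zinc-finger factor induced by serum, was at 11.5 and 29.0 CPM in the fibroblast libraries, 106 and 100.3 in early cells and 123 and 75.5 in late cells. All 4 libraries of CRISPR-treated cells exceeded both fibroblast libraries (early 2.35 ± 0.51, edgeR adjusted p = 0.0721; late 2.29 ± 0.51, adjusted p = 0.0708). Ier2 was at 12.8 and 17.1, 40.8 and 26.9, and 33.1 and 33.7 CPM, again without overlap (late 1.16 ± 0.31, edgeR adjusted p = 0.0834). Egr3 was at 1.07 and 0.412, 13.4 and 1.51, and 11.3 and 10.9 CPM (late 3.90 ± 1.17, adjusted p = 0.1).

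**Figure D2:**
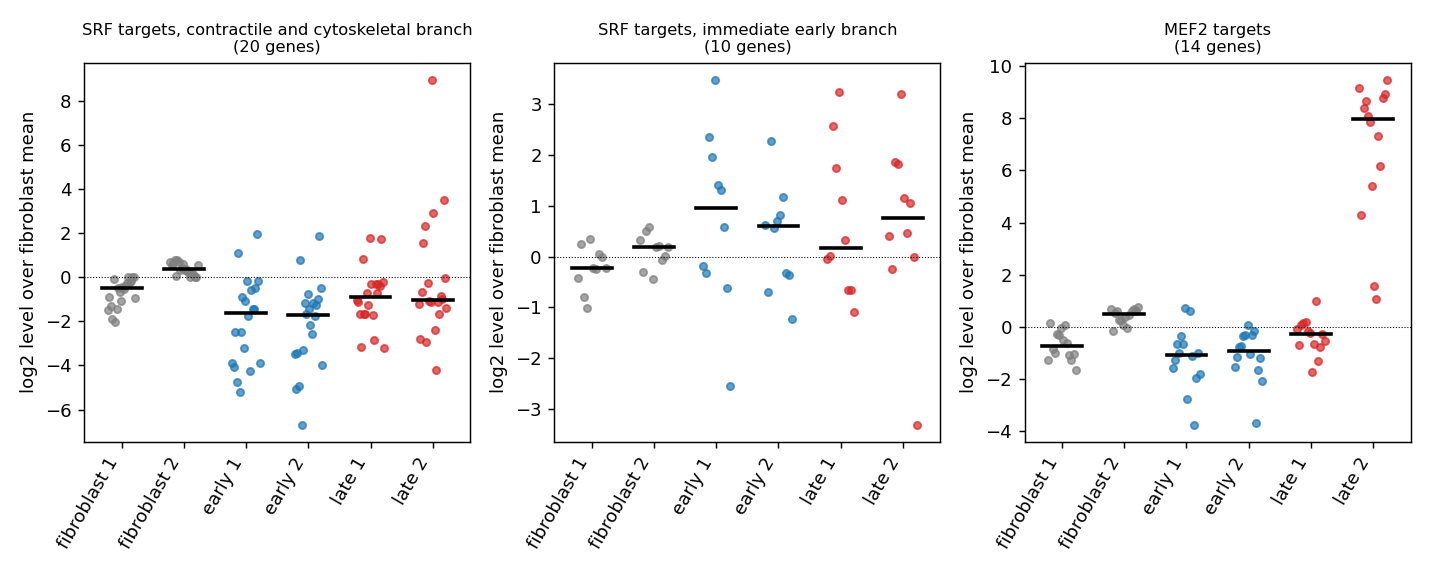
Level of each listed SRF or MEF2 target over its fibroblast mean, as log2 with 0.5 CPM added to both (vertical axis), in the 6 libraries; points are genes and black lines medians. The contractile medians are -1.61 and -1.70 in early and -0.87 and -1.01 in late libraries, and the MEF2 target median is 7.97 in late replicate 2 but -0.27 in late replicate 1.

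Among 15 cofactors and upstream signalling genes of SRF, 1 rose and 0 fell with edgeR in each comparison with fibroblasts. Of all genes, 0.641% rose and 0.779% fell in late cells, and 0.695% and 0.833% in early cells. At an unadjusted p under 0.05 there were 6 in late and 5 in early cells (32.5% and 29.8% of all genes). DESeq2 called 2 higher and 4 lower in late cells (26.7% of all genes called). In early cells it called 2 higher and 3 lower (22.1%). The gene that rose with edgeR was Map3k1, a kinase upstream of the JNK pathway. It was at 4.84 and 5.91 CPM in the fibroblast libraries, 31.3 and 20.4 in early cells and 39.0 and 35.2 in late cells. It rose by 2.26 ± 0.32 on the log2 scale in early cells (edgeR adjusted p = 0.0472) and by 2.79 ± 0.33 in late cells (adjusted p = 0.0439). In late cells the call was lost without fibroblast replicate 1 (0.277), fibroblast replicate 2 (0.294) or late replicate 2 (0.0757). In early cells it was lost without fibroblast replicate 1 (0.265), fibroblast replicate 2 (0.280), early replicate 1 (0.116) or late replicate 1 (0.0517). With the replicate number as a block the edgeR adjusted p was 0.0724 in late and 0.0757 in early cells.

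In late cells 3 of the 15 lay above and 5 below both fibroblast libraries (35.7% and 32.9% of all genes). Among those below, without passing the test, was Diaph2, a formin that assembles actin filaments, at 60.4 and 53.0 CPM in the fibroblast libraries, 25.8 and 28.0 in early cells and 26.8 and 20.4 in late cells (late -1.27 ± 0.24, edgeR adjusted p = 0.0610). Its early libraries also lay below both fibroblast libraries.

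Mef2a (ENSMUSG00000030557, chromosome 7, 67231163 to 67372858, minus strand), the widely expressed member of its family, did not separate the groups. It was at 217 and 162 CPM in the fibroblast libraries, 181 and 209 in early cells and 126 and 215 in late cells. All 3 groups overlapped, and the log2 fold changes were 0.04 ± 0.33 in early and -0.16 ± 0.33 in late cells against fibroblasts (edgeR adjusted p = 0.951 and 0.762). The Mef2a promoter is the one with the MEF2 box across its start. Lysmd4, on the opposite strand, shares 302 exon bases with Mef2a and was at 7.53 to 19.0 CPM.

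Mef2d (ENSMUSG00000001419, chromosome 3, 88142372 to 88172086, plus strand) was lower in 3 of the 4 libraries of treated cells. Its level was 124 and 129.7 CPM in the fibroblast libraries, 75.1 and 69.1 in early cells, 72.5 in late replicate 1 and 192 in late replicate 2. The early libraries lay below the fibroblast ones (log2 fold change -0.81 ± 0.46, edgeR adjusted p = 0.294), whereas the late libraries lay on either side of them (0.06 ± 0.46, adjusted p = 0.932). Without late replicate 2 the late value was -0.81. An antisense transcript at its end shares 531 exon bases and stayed at or below 0.674 CPM.

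Mef2c (ENSMUSG00000005583, chromosome 13, 83504034 to 83667080, plus strand), required for the heart tube and expressed also in endothelial and myeloid cells, varied as much within groups as between them. It was at 14.3 and 22.7 CPM in the fibroblast libraries, 8.11 and 23.3 in early cells and 12.4 and 45.0 in late cells. Within each group replicate 2 was the higher library, and all groups overlapped. The log2 fold change of late cells was 0.63 ± 0.78 over fibroblasts (edgeR adjusted p = 0.592) and 0.87 ± 0.78 over early cells (0.761). Without late replicate 2 it was -0.58 and -0.34.

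Per kilobase, the MEF2 family was carried by Mef2d and Mef2a at every stage. Mef2d made up 56.7% and 63.4% of the family in fibroblasts, 49.4% and 42.3% in early cells and 56.4% and 64.7% in late cells. Mef2a made up 40.6% and 32.3%, 48.6% and 52.3%, and 39.95% and 29.4%, so the order of the pair was not separated in early cells. In CPM Mef2a exceeded Mef2d in every library, so their order depends on the exon lengths used. Mef2c stayed between 2.03% and 5.76%. Mef2b, the remaining member, had at most 0.101 CPM, near the level of 3 counts.

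Cofactors and repressors of MEF2 were about evenly split in direction. Of 16 listed genes 14 were tested, with 6 higher and 8 lower in late cells (median log2 fold change -0.02, against 0.11 over all genes). With edgeR 0 passed, and 4 had an unadjusted p under 0.05 (32.5% of all genes). DESeq2 called 1 higher and 3 lower (26.7% of all genes called). Both counts are near those shares. Rbm24, an RNA-binding splicing regulator of heart and skeletal muscle, was at 0.101 and 0.647 CPM in the fibroblast libraries, 0.134 and 0.0473 in early cells and 4.04 and 182 in late cells (7.92 ± 2.12 over fibroblasts, edgeR adjusted p = 0.0851). Without late replicate 2 the Rbm24 value was 3.40, and without late replicate 1 it was 8.79. As with Myocd, both late libraries exceeded all others and late replicate 2 was the far higher. Ppp3ca, the catalytic subunit of calcineurin that activates MEF2, was at 217 and 172, 84.8 and 111, and 107 and 88.1 CPM, lower in all treated libraries than in either fibroblast library (edgeR adjusted p = 0.0800 in late cells). Vgll4, a cofactor of TEAD proteins, was at 61.0 and 105, 34.7 and 49.8, and 39.7 and 35.7 CPM (late -1.13 ± 0.34, adjusted p = 0.101).

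Most muscle genes known as MEF2 targets were high in late replicate 2 and low elsewhere. Of 14 listed genes 13 were tested, and 13 had a fitted value above fibroblasts (median log2 fold change 8.05, and -0.51 without late replicate 2), but 1 of the 13, Slc2a4, had late values that both exceeded the fibroblast ones. With edgeR 0 passed, and 9 had an unadjusted p under 0.05 (32.5% of all genes). DESeq2 called 10 higher (26.7% of all genes called in either direction). Smyd1, a muscle methyltransferase, was at 0.201 and 1.353 CPM in the fibroblast libraries, 0.312 and 0.237 in early cells, 0.834 in late replicate 1 and 426 in late replicate 2 (8.08 ± 2.81, edgeR adjusted p = 0.126). Hrc, a calcium-binding protein of the sarcoplasmic reticulum, was at 0.269 and 1.85, 0.267 and 0.426, and 1.21 and 638 CPM (8.22 ± 2.86, adjusted p = 0.126). Slc2a4, the insulin-responsive glucose transporter, was at 0.269 and 1.12, 0.0445 and 0.568, and 1.88 and 193 CPM (7.11 ± 2.38, adjusted p = 0.119). Without late replicate 2 the values were 0.08 for Smyd1, 0.17 for Hrc and 1.42 for Slc2a4. Without late replicate 1 they were 8.98, 9.13 and 8.01. Mef2c and Mef2d were also highest in late replicate 2, by 3.62 and 2.65 times over late replicate 1.

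Smarcd3 (ENSMUSG00000028949, chromosome 5, 24590818 to 24624411, minus strand) was the member with the tightest difference. It was at 22.3 and 27.8 CPM in the fibroblast libraries, 27.3 and 36.0 in early cells and 59.3 and 64.2 in late cells. Early libraries overlapped the fibroblast ones, and both late libraries lay above all others, with a difference of 1.30 ± 0.25 (log2) from fibroblasts (edgeR adjusted p = 0.0617, DESeq2 adjusted p = 0.000377) and 0.96 ± 0.25 over early cells (edgeR adjusted p = 0.377, DESeq2 adjusted p = 0.0306). The size hardly turned on late replicate 2: without it the values were 1.24 and 0.90. In the fit to late and fibroblast libraries alone the edgeR adjusted p was 0.0488, and without a filter on low counts it was 0.0173. Those fits called 1016 and 2495 genes, against 237 in the main fit. With the replicate number as a block Smarcd3 did not pass.

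Counts of Smarcd3 are uncertain at its 3′ end, since 2466 of its 5120 exon bases are also exons of Chpf2 on the other strand and the strand setting of the counting is not given in the sources used here. Chpf2, which takes part in chondroitin synthesis, went the opposite way, at 184 and 253 CPM in the fibroblast libraries, 79.5 and 96.6 in early cells and 60.8 and 42.3 in late cells (late -2.08 ± 0.30, edgeR adjusted p = 0.0507; early -1.31 ± 0.29, adjusted p = 0.0737). Without late replicate 1 the late value of Chpf2 was -2.46, and without late replicate 2 it was -1.85. How far the overlap enters the Smarcd3 values was not tested.

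The paralogs of Smarcd3 occupy the same place in the BAF complex. Smarcd1 was at 21.5 and 23.6 CPM in the fibroblast libraries, 41.2 and 36.4 in early cells and 53.2 and 48.9 in late cells. Its groups were fully separated in that order (early 0.78 ± 0.21, edgeR adjusted p = 0.0854; late 1.18 ± 0.21, adjusted p = 0.0594). Smarcd2 was at 60.3 and 58.2, 72.6 and 77.9, and 70.2 and 54.0 CPM (late 0.07 ± 0.21, adjusted p = 0.840). Per kilobase, Smarcd2 was the most abundant of the 3 in every library, but it held 63.4% and 59.0% of the sum in fibroblasts against 44.1% and 37.9% in late cells. The share of Smarcd3 was 16.4% and 19.7% in fibroblasts, 14.9% and 18.6% in early cells and 26.1% and 31.5% in late cells. The Smarcd3 length holds all 5120 exon bases, 2466 of them shared with Chpf2. Whether this changes the order or the shares was not tested.

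Of 25 listed subunits of the BAF complex 24 were tested, and 18 were higher and 6 lower in each comparison with fibroblasts, where 50.2% of all genes were higher in early and 54.1% in late cells, with medians of 0.29 in early and 0.27 in late cells (0.00 and 0.11 over all genes). None passed with edgeR (6 and 7 at an unadjusted p under 0.05), and DESeq2 called 2 higher and 1 lower in early and 6 higher and 1 lower in late cells. The late counts and the early count by unadjusted p are near the shares of all genes given above, and the early DESeq2 count is below its share. Dpf3, also known as BAF45c, a subunit of heart and muscle BAF complexes, was at 0.0672 and 0.0588 CPM in the fibroblast libraries, 0.267 and 0.331 in early cells and 1.501 and 10.9 in late cells. Its groups were fully separated (late 6.53 ± 1.26, edgeR adjusted p = 0.0634), with 2 counts in each fibroblast library. Dpf3 passed the filter on low counts through its late libraries alone, so its values are descriptions. The Dpf3 value was 4.47 without late replicate 2 and 7.26 without late replicate 1. Arid2, which defines the PBAF form of the complex, was at 45.5 and 44.2, 89.8 and 77.7, and 94.3 and 71.9 CPM (late 0.89 ± 0.22, adjusted p = 0.0786).

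The MyoD-family factors, partners of MEF2 in skeletal muscle, Myod1, Myog and Myf5, had at most 1 count in a library: Myod1 and Myog had 0 counts in all 6 libraries, and Myf5 had 1 count in early replicate 2 and 1 in late replicate 2. Of 7 listed skeletal myogenic factors 2, Pax7 and Pax3, were tested, and neither passed with edgeR. In late and in early cells 1 of the 2 had an unadjusted p under 0.05 (32.5% and 29.8% of all genes). DESeq2 called 1 in each (26.7% and 22.1% of all genes). Pax7, a paired-box factor of muscle stem cells, had no counts in fibroblasts and was at 14.3 and 6.67 CPM in early cells and 1.79 and 0.281 in late cells (edgeR adjusted p = 0.0642 for early and 0.0819 for late cells). The early log2 fold change of Pax7 was 11.19, and 11.27 without late replicate 1 or 11.10 without late replicate 2. Pax7 passed the filter on low counts through libraries of treated cells alone, so its values are descriptions. Pax3 was at 0.168 to 2.55 CPM over all libraries.

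Markers of other cell types moved with late replicate 2 and with the fibroblast libraries, and their part in the member values was not tested. The 10 endothelial markers summed to 11.8 and 15.9 CPM in the fibroblast libraries, 6.82 and 5.44 in early cells, 28.1 in late replicate 1 and 854 in late replicate 2. The VEGF receptor gene Kdr reached 10.4 and 170 CPM in late cells, and the endothelial cadherin gene Cdh5 reached 8.71 and 174 CPM. Emcn and Cldn5 were without counts in late replicate 1. The 10 macrophage markers summed to 274 and 1192 CPM in the fibroblast libraries, 4.81 and 10.9 in early cells, and 4.25 and 157 in late cells. In each group replicate 2, the library with more Mef2c, had the higher sum of macrophage, cardiomyocyte, smooth muscle and fibroblast markers. Among 10 fibroblast markers 1 fell with edgeR in each comparison with fibroblasts (0.833% of all genes in early and 0.779% in late cells). It was S100a4, a calcium-binding protein, at 1452 and 939 CPM in the fibroblast libraries, 128 and 156 in early cells and 109.6 and 68.1 in late cells (edgeR adjusted p = 0.0415 in early and 0.0379 in late cells). The late call of S100a4 was lost without fibroblast replicate 1 (0.237), fibroblast replicate 2 (0.196) or late replicate 2 (0.0764), and the early call without fibroblast replicate 1 (0.226), fibroblast replicate 2 (0.220), early replicate 1 (0.150) or early replicate 2 (0.0818). With the replicate number as a block the edgeR adjusted p of S100a4 was 0.0704 in early and 0.0671 in late cells. As a list, 6 of 10 fibroblast markers were higher in early cells (median log2 fold change 0.44) and 2 of 10 in late cells (median -0.82). The early libraries disagreed: the 10 markers summed to 3112 CPM in early replicate 1 and 12871 in early replicate 2. The fibroblast libraries had 6366 and 7754 CPM. In early cells 0 of the 10 lay above both fibroblast libraries and 3 below (32.3% and 34.4% of all genes). Postn, a matrix protein, was at 0.638 and 1.68, 1.20 and 186, and 85.5 and 71.95 CPM, and Fbn1, fibrillin, at 889.5 and 584, 236 and 448, and 182 and 254.5 CPM.

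The 8 smooth muscle markers summed to 868 and 3478, 237 and 250, and 1075 and 1211 CPM. All of them except Synpo2 are also among the listed contractile SRF targets, so these lists are not separate observations. Smtn, smoothelin, differed from Tagln and Actg2 in direction, at 45.9 and 49.5, 103 and 83.4, and 85.3 and 242 CPM. Endothelial Pecam1 was at 0.101 and 0.324, 0.846 and 1.23, and 1.38 and 129 CPM. Among macrophage markers Lyz2 was at 181 and 787, 1.02 and 7.29, and 1.29 and 49.9 CPM, Cd68 at 11.8 and 34.6, 1.74 and 1.18, and 1.17 and 4.72 CPM, and Adgre1 at 15.8 and 73.8, 0 and 0.0473, and 0.125 and 8.71 CPM. Their lowest values were in early cells and late replicate 1. Of the cardiomyocyte markers, Myh7, a myosin heavy chain, was at 0.0672 and 0.618, 3.07 and 0.662, and 2.67 and 362 CPM. Actc1, cardiac actin, was at 2.18 and 17.6, 2.27 and 1.89, and 16.2 and 6843 CPM. Ryr2, the cardiac calcium release channel, was at 0.571 and 3.65, 0.802 and 0.521, and 5.84 and 1212 CPM.

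**Figure D3:**
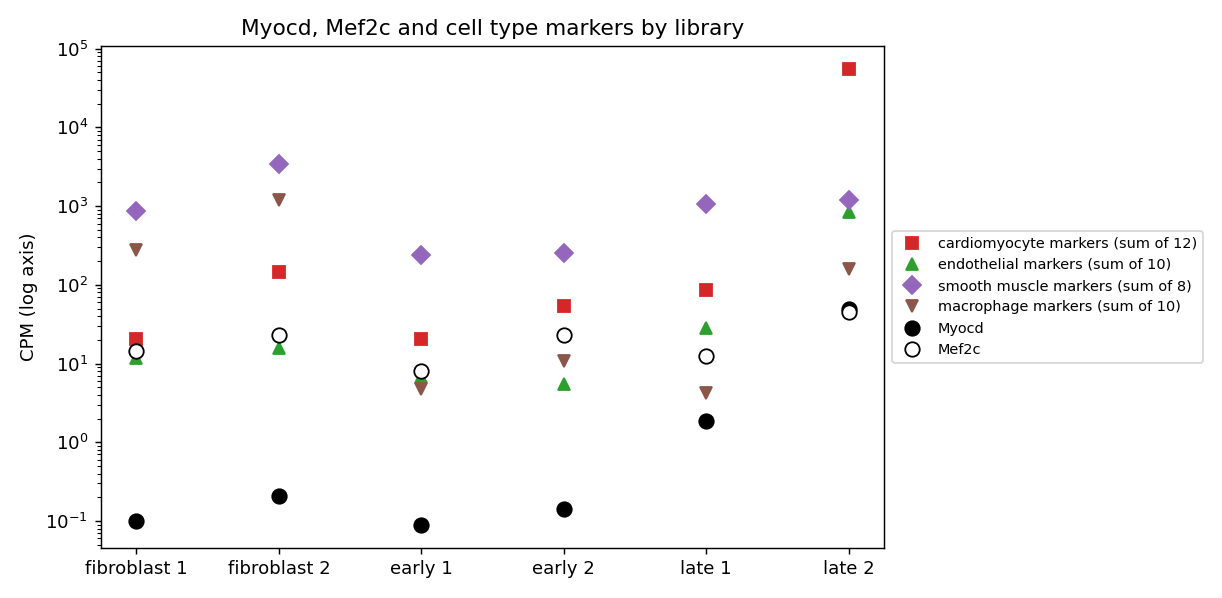
CPM on a logarithmic axis of Myocd (filled circles), Mef2c (open circles) and the summed markers of 4 cell types in the 6 libraries. Cardiomyocyte markers reach 55701 CPM and endothelial markers 854 CPM in late replicate 2, the library in which Myocd (49.4 CPM) and Mef2c (45.0 CPM) are highest.

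Ordered by CPM per kilobase, the members were fully separated in fibroblasts, while some overlapped in early and late cells. The order between genes depends on the merged exon lengths. In fibroblasts the order was Srf (25.2 and 28.4), Mef2d (20.7 and 21.7), Mef2a (14.8 and 11.04), Smarcd3 (4.35 and 5.43), Mef2c (0.910 and 1.45) and Myocd (0.0157 and 0.0321), and no neighbours overlapped. In early cells Mef2a and Mef2d overlapped. In late cells Mef2d (12.1 and 32.1) overlapped Srf (28.7 and 55.6), Mef2a (8.58 and 14.6) and Smarcd3 (11.6 and 12.5). Smarcd3 also overlapped Mef2a, and Myocd (0.285 and 7.69) overlapped Mef2c (0.790 and 2.86).

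The genes with the most similar profiles were sought by the root mean square difference of centred log2 CPM over the 6 libraries, among 11383 genes with a mean log2 CPM of at least 1. The measure rests on 6 libraries of which late replicate 2 dominates several profiles. Closest to Myocd were Kdr (0.647), Popdc2, a cyclic-AMP-binding membrane protein of muscle (0.662), and Coro6, a coronin (0.718). For Srf they were Trmt2b (0.091), Pdlim5, a PDZ-LIM protein of the sarcomere (0.103), and Rdh13 (0.106). Flat profiles have many neighbours: 2501 genes lay within 0.5 of Srf and 5744 within 0.5 of Mef2a, but none within 0.5 of Myocd. Closest to Mef2a were Mast4 (0.090), Fam213a (0.097) and B4galt4 (0.110).

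Mef2c had Lbh, a transcription cofactor of limb bud and heart, as its nearest neighbour (0.164), at 121 and 171 CPM in the fibroblast libraries, 49.7 and 193 in early cells and 90.1 and 376 in late cells, followed by Exoc3l (0.188) and Slc41a3 (0.204). Mef2d was nearest to Prepl (0.088), Rasal2 (0.097) and Agtpbp1 (0.112). Smarcd3 was nearest to Sfxn4 (0.111), Itgb3bp (0.188) and Gstm1, a glutathione transferase (0.199), which was at 60.2 and 61.8, 74.2 and 95.7, and 149 and 119 CPM.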

How the data were processed

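Per the labels, RNA was sequenced from 6 libraries, for which the authors deposited raw, unscaled counts by Ensembl identifier in 1 table. The submitters' processing notes name the build GRCm38 and the tools STAR 2.5.2b, Trimmomatic 0.36, Subread 1.5.2 and featureCounts. Annotation release and strand setting: not given in the sources used here. Symbols, positions and exon lengths came from GENCODE release M21 on GRCm38 (49056 of 49315 identifiers matched). Exon lengths merge all annotated exons of a gene.

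The main analysis used edgeR 4.0.16 (R 4.3.3): default expression filter (16688 genes), TMM scaling, and a robust quasi-likelihood fit of 3 group means over all 6 libraries without a block (3 residual degrees of freedom, common biological coefficient of variation 48.6%). Calls were made at a Benjamini-Hochberg adjusted p under 0.05 over all genes tested. Standard errors are the fold change divided by the root of F. DESeq2 1.42.0, other scalings, no filter, 2-group fits, a replicate block and leaving out each library were alternatives. Depth was 20172874 to 40122999 counts per library.

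Members and gene lists were chosen with earlier results of these data known. Some lists share genes: all smooth muscle markers except Synpo2 are also contractile SRF targets. Nppa is both a MEF2 target and a cardiomyocyte marker, and Nr4a1 is both an immediate early and a MEF2 target. From each list the text names called genes and the 3 with the smallest p between late cells and fibroblasts, plus paralogs of members, Myod1, Myog and Myf5. Of these, 1 SRF signalling gene is not reported here. Emcn, Cldn5, Lum, Chpf2 and Lysmd4 were named after their values were seen.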

Additional observations from a re-analysis of the deposited data

How the results depend on the processing

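With 2 libraries a group, counts of calls depended strongly on the method. Against fibroblasts, 237 genes were called in late and 255 in early cells, and 0 between late and early cells. DESeq2 called 4722, 4046 and 1100 genes in that order, and edgeR without a filter on low counts 2495, 2337 and 276. Fits to only the groups compared called 1016 genes in late and 1469 in early cells against fibroblasts, and library totals without TMM called 514 in early cells. Leaving out 1 library gave 0 to 1058, 0 to 823 and 0 to 602 genes. Of the members, DESeq2 called 2 in late cells against fibroblasts and 2 against early cells; no filter gave 1 and the 2-group fit 1 against fibroblasts, and leaving out 1 library gave 0 to 1 in both.

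Replicate numbers did not pair the libraries by the measure used (correlations of same-numbered deviations 0.121, 0.238 and 0.0859). With the replicate number as a block, edgeR called 9 genes in late and 26 in early cells against fibroblasts and 0 members, and the late value of Mef2d was -0.03.

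Library totals without TMM moved the median log2 fold change of all genes by 0.159 in late and 0.169 in early cells against fibroblasts.

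The direction of small differences turned when 1 library was left out. Against fibroblasts, the late value ranged from -0.60 to 0.09 for Mef2a, -0.58 to 1.19 for Mef2c, -0.81 to 0.51 for Mef2d, -3.28 to 0.36 for Pax3 and -0.22 to 0.24 for Smarcd2. The early value ranged from -0.16 to 0.26 for Mef2a, -1.15 to 0.34 for Mef2c and -0.82 to 0.18 for Myocd. Between late and early cells it ranged from -0.63 to 0.03 for Mef2a and -0.34 to 1.72 for Mef2c. The cause was not tested. Where a library is left out, the lone library of its group is assumed to vary like the other groups.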
